A study of Homo sapiens with 4 samples.

Results

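The genes described here are 10 members of the NRF2 antioxidant response, measured in PC3 cells, an established human prostate cancer cell line. They are NFE2L2, KEAP1, HMOX1, NQO1, GCLC, GCLM, TXNRD1, SRXN1, AKR1C1 and AKR1C3, and they were chosen by name. The arrays carried 11 probes for these 10 genes among 34127 probes, with a pair of probes for AKR1C1 and a single probe for each other gene. The probes that could be named stood for 19102 genes. The spot tables hold an accession for each probe and no gene symbol, so that a probe was named when its accession was listed for a gene in the RefSeq gene table. A lentiviral shRNA directed at ALKBH3, or at GFP in the control, was introduced over 48 h, and the cells were then kept in puromycin for 48 h or 96 h. Each of the 4 combinations of shRNA and selection time was measured on 1 single-colour Agilent array. All groups therefore share the lentiviral infection and the puromycin. ALKBH3 is a demethylase that repairs alkylated DNA and RNA, and the study asked how its depletion changed gene expression. The labels do not say which ALKBH3 shRNA sequence was used.

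NRF2, the protein made from NFE2L2, is a transcription factor that is held at a low level by KEAP1, an adaptor of a ubiquitin ligase that marks NRF2 for degradation. Oxidants and electrophiles modify KEAP1, and NRF2 then accumulates, pairs with a small MAF protein and binds antioxidant response elements near its targets. The targets include enzymes that break down haem, make glutathione, restore thioredoxin and peroxiredoxin, and reduce quinones and carbonyl compounds. The aldo-keto reductases AKR1C1 and AKR1C3 belong to the last group, and in prostate cells they are also known for the conversion of steroid hormones.

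The core letters of an antioxidant response element, TGACNNNGC, were searched on both strands of RefSeq promoters of GRCh38.p14, each running from 250 bases before to 50 bases after a transcription start. The table held 13 promoters for 9 of the genes and none for HMOX1. The letters were present in 4 promoters of 3 genes, GCLM, TXNRD1 and KEAP1, and in 13.3% of all 35116 promoters. Followed by a further A, they were present in 3 promoters of the same 3 genes and in 3.18% of all promoters. The windows around these longer matches are shown because they are the stretches of the members' promoters that hold the best known sequence of the pathway, with the letters TGACNNNGC in capitals. They begin 34 bases before the start of GCLM, 102 before a start of TXNRD1 and 31 before the start of KEAP1, counted to the farthest capital.
GCLM, chr1:93909448-93909472, plus strand: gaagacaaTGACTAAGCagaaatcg
TXNRD1, chr12:104286922-104286946, minus strand: agtcagaaTGACAAAGCagaaatcc
KEAP1, chr19:10502786-10502810, plus strand: ggtcaccaTGACTAAGCagagccgg
A match describes these letters and is not a binding site, and its absence elsewhere says only that the letters are not in the window searched.

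Signals below are log2 intensities relative to the 75th percentile of the same array, so that 0 marks that percentile and a difference of 1 is a 2-fold change. The intensity at that percentile lay between 2134 and 2385 on the 4 arrays, and between 67.0% and 70.9% of probes were well above background by the image software. ALKBH3 signal was lower with its shRNA at both times, with log2 fold changes of -2.04 and -2.06 for probe A_23_P35989 and of -1.75 and -1.51 for A_33_P3225250. Over all arrays these were -2.05 ± 0.12 and -1.63 ± 0.13 (SE), and the limma adjusted p of 0.217 and 0.240 became 0.0247 and 0.0373 once the time points formed a replicate block. Probes for the epithelial genes KRT8, KRT18, KRT19, EPCAM and CDH1 and for VIM were above background on all 4 arrays, whereas KLK3, which marks luminal prostate cells, was not well above background on any. Of the other markers, 2 of 4 probes for the leukocyte gene PTPRC and 1 of 3 for the endothelial gene PECAM1 were above background on all 4 arrays. Both arrays of a selection time lay on the same slide, so that slide and time cannot be told apart, while each comparison of the shRNAs was made within a slide. The selection times are the only repeat of each shRNA. The labels do not name separate cultures, so that p-values measure only the spread between these arrays. In the fit with no replicate block, that spread includes the difference between the selection times and slides. Of the 34127 probes, 23244 exceeded background clearly on both arrays of 1 or both shRNAs and were tested.

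With ALKBH3 shRNA, none of the antioxidant genes measured passed the test for a change. Of the 10 member probes tested, which stand for 9 genes, 0 were called at a 2-fold change with an unadjusted p below 0.05 in limma, against 262 or 1.13% of all probes tested. At an unadjusted p below 0.05 alone, the members again gave 0 and all probes gave 1777, or 7.64%. No probe on the array, member or other, passed an adjusted p below 0.05 in this fit. The members' log2 fold changes ran from -0.27 for GCLM to 0.25 for HMOX1 with a median of 0.04, and the median of all tested probes was 0.00.

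The regulators of the pathway gave 1 usable probe. The NFE2L2 probe A_33_P3225600 gave intensities of 4.78 on the control array and 5.55 on the ALKBH3 array at 48 h, then 6.26 and 5.26 at 96 h. It was not well above background on any array and was not tested, so that NFE2L2 has no usable value here. KEAP1 was bright and nearly level, at 1.28 on the control array and 1.31 on the ALKBH3 array at 48 h, then 1.38 and 1.46 at 96 h. The log2 fold change of KEAP1 was 0.05 ± 0.13 (SE, 2 arrays against 2, limma adjusted p = 0.984), and the SD over its 10 spots was 0.062 to 0.096 within an array.

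HMOX1, the haem oxygenase that opens the haem ring and releases iron and carbon monoxide, had the largest positive fold change among the members. Its signal read 0.52 on the control array and 0.72 on the ALKBH3 array at 48 h, then -0.07 and 0.22 at 96 h. It was higher with ALKBH3 shRNA within each slide, but the ALKBH3 array at 96 h lay below the control array at 48 h, so that the groups overlapped. The log2 fold change was 0.25 ± 0.28 (SE, limma adjusted p = 0.931), with a 95% interval from -0.49 to 0.98. The interval did not reach a 2-fold rise and did include no change. Fitted with a replicate block for the time points, the SE was 0.086, the unadjusted p 0.0397 and the limma adjusted p 0.199. The 95% interval of the blocked fit ran from 0.02 to 0.48. The SD over the 10 spots of HMOX1 was between 0.059 and 0.095 on each array.

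The glutathione enzymes moved in opposite directions by small amounts. GCLC and GCLM are the catalytic and the modifier subunit of glutamate-cysteine ligase, which performs the first step of glutathione synthesis. GCLC stood at 0.23 on the control array and 0.43 on the ALKBH3 array at 48 h, then at 0.24 and 0.38 at 96 h. In the same order, GCLM stood at 2.75 and 2.56, then at 2.79 and 2.46. Both ALKBH3 arrays lay above both control arrays for GCLC and below them for GCLM. The log2 fold change was 0.17 ± 0.12 for GCLC (SE, limma adjusted p = 0.840) and -0.27 ± 0.12 for GCLM (SE, limma adjusted p = 0.715). The 95% interval for GCLM ran from -0.59 to 0.05. In the blocked fit the interval ran from -0.51 to -0.03, the unadjusted p for GCLM was 0.0346 and the limma adjusted p 0.187. GCLC and GCLM have a single spot each, for which the software gave an error of about 0.144 on the log2 scale on every array.

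The quinone and thioredoxin enzymes differed by less than GCLM between the shRNAs. NQO1 reduces quinones by a transfer of a pair of electrons, and it read -1.50 on the control array and -1.55 on the ALKBH3 array at 48 h, then -1.46 and -1.60 at 96 h. TXNRD1, the reductase that restores thioredoxin in the cytosol, stood at -0.12 and 0.00, then at -0.04 and 0.07, in that order. SRXN1, which repairs overoxidised peroxiredoxins, stayed between 1.96 and 2.05 on the 4 arrays, lowest with control shRNA at 48 h. The log2 fold changes were -0.10 ± 0.12 for NQO1, 0.11 ± 0.12 for TXNRD1 and 0.02 ± 0.12 for SRXN1, with limma adjusted p of 0.940, 0.923 and 0.992. The arrays of the shRNAs did not overlap for NQO1, which was lower with ALKBH3 shRNA, or for TXNRD1, which was higher. Over the members, groups did not overlap for 2 probes higher with ALKBH3 shRNA, GCLC and TXNRD1, and for 2 lower, NQO1 and GCLM. Over all tested probes the shares were 17.5% higher and 18.5% lower, so that 2 of 10 in each direction was near the background.

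**Figure D1:**
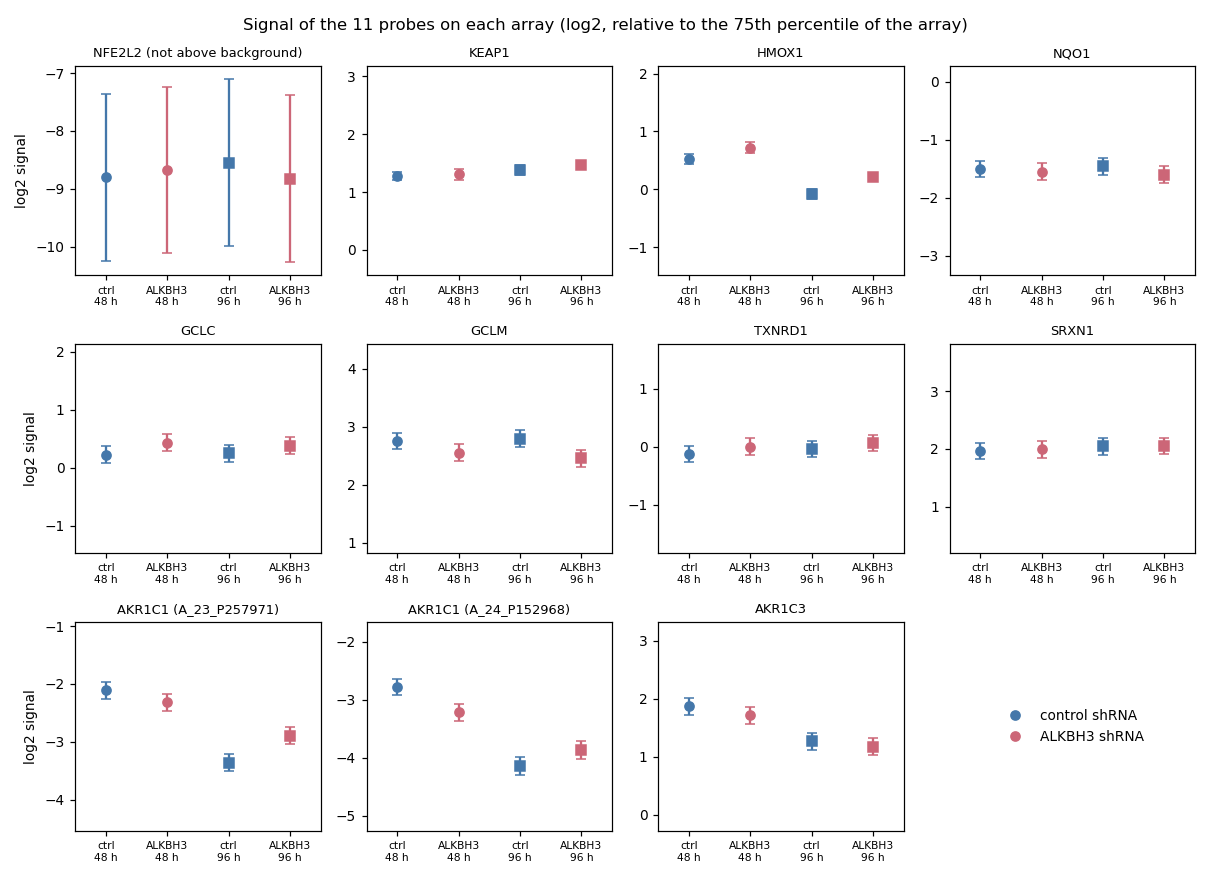
Each panel plots the log2 signal of 1 probe, relative to the 75th percentile of the array, on the 4 arrays, with control shRNA in blue and ALKBH3 shRNA in red. Bars show the SD over spots for KEAP1 and HMOX1, which have 10 spots, and the error given by the image software for the other probes, which have 1. Panels span the same range of log2 signal apart from their level, and the AKR1C and HMOX1 panels show lower values at 96 h than at 48 h.

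AKR1C1 reduces ketosteroids such as progesterone and many carbonyl compounds, and AKR1C3 makes testosterone from androstenedione. Probe A_23_P257971 for AKR1C1 gave -2.11 on the control array and -2.32 on the ALKBH3 array at 48 h, then -3.36 and -2.90 at 96 h. Probe A_24_P152968 gave -2.78 and -3.21, then -4.14 and -3.87. On both probes the ALKBH3 array was thus lower than control at 48 h and higher at 96 h. The log2 fold change over all arrays was 0.13 ± 0.47 for the first probe (SE, limma adjusted p = 0.987) and -0.08 ± 0.51 for the second (SE, limma adjusted p = 0.992). AKR1C3 stood at 1.87 on the control array and 1.71 on the ALKBH3 array at 48 h, then at 1.26 and 1.17 at 96 h. Its log2 fold change was -0.12 ± 0.29 (SE, limma adjusted p = 0.983). In the blocked fit the SE was 0.18 and 0.19 for the AKR1C1 probes and 0.08 for AKR1C3. The limma adjusted p there were 0.725, 0.839 and 0.455, in that order.

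The AKR1C genes are neighbours of similar sequence whose transcripts may bind the same probe. No probe sequence was used here, so that cross-hybridization was not tested. The probes for AKR1C1 and AKR1C3 did not share the reversal between times, which was seen for both AKR1C1 probes and not for AKR1C3. After normexp background correction AKR1C3 also changed sign between the times, at -0.10 and 0.02, so that this contrast turned with the background correction. For AKR1C4, a further family member, A_23_P149926 was not well above background on any array. Its other probe A_33_P3272291 stood at -2.30, -2.63, -2.88 and -2.91 in the order control and ALKBH3 at 48 h, then the same at 96 h. No probe matched AKR1C2.

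**Figure D2:**
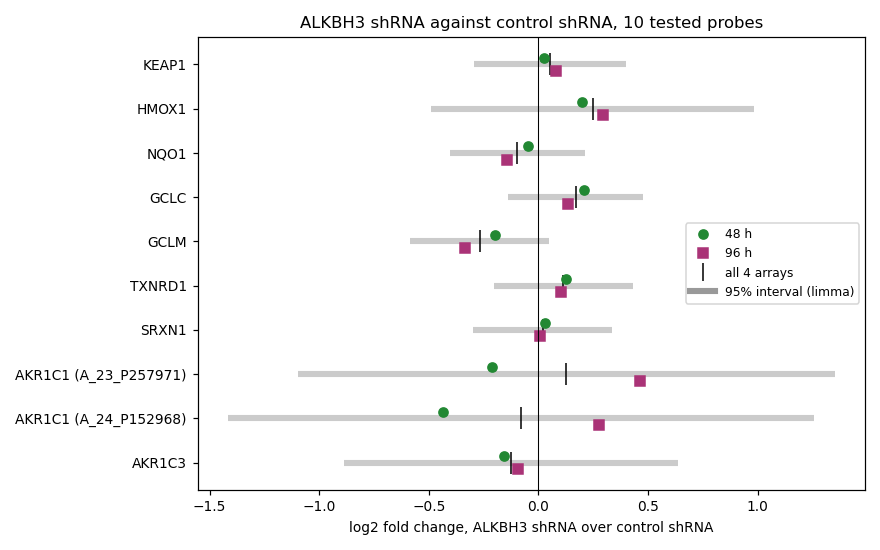
The log2 fold change of ALKBH3 over control shRNA is plotted for the 10 tested probes, at 48 h as circles, at 96 h as squares and over all 4 arrays as a vertical tick, with the 95% interval from limma as a grey bar. The intervals come from the fit with no replicate block, and all 10 include 0. In the blocked fit, not plotted, the intervals of HMOX1 and GCLM excluded 0. The circles and squares lie on opposite sides of 0 only for the AKR1C1 probes.

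From 48 h to 96 h of selection, HMOX1, AKR1C1 and AKR1C3 differed by more than they did between the shRNAs at a single time. HMOX1 fell by 0.60 on the log2 scale with control and by 0.50 with ALKBH3 shRNA. AKR1C3 fell by 0.61 and by 0.54, or 1.52-fold and 1.46-fold. AKR1C1 fell by 1.25 with control and by 0.58 with ALKBH3 shRNA on the first probe, and by 1.37 and 0.66 on the second. The fall of AKR1C1 was 2.38-fold and 2.58-fold with control shRNA and 1.49-fold and 1.57-fold with ALKBH3 shRNA, and whether the falls differed between the shRNAs was not tested. A fall of at least 2-fold with control shRNA was found for 2 of the 10 member probes, both of AKR1C1, and for 0.835% of all probes tested.

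These 4 probes were lower on both 96 h arrays than on both 48 h arrays, which held for 24.4% of all probes tested. KEAP1 and SRXN1 were higher on both 96 h arrays, which held for 27.4% of all probes. In a limma fit with shRNA and time as terms, chosen after the data were seen, the change with time was -0.55 for HMOX1 (adjusted p = 0.0398), -0.57 ± 0.08 for AKR1C3 (SE, adjusted p = 0.0379) and -1.01 ± 0.19 for the second AKR1C1 probe (SE, adjusted p = 0.0496). The first AKR1C1 probe did not pass, at -0.92 ± 0.18 (SE, limma adjusted p = 0.0539), but passed after median centring at an adjusted p of 0.0414. The 3 of 10 member probes that passed compare with 4.42% of all probes that were lower at 96 h by this test. Without the shRNA term these 4 probes had limma adjusted p between 0.156 and 0.211, with the same direction. The shift cannot be told apart from a difference between the slides.

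The glutathione, thioredoxin and quinone members did not follow AKR1C1 and HMOX1 with time. Their changes lay between -0.10 and 0.09 on the log2 scale in either shRNA. The limma adjusted p for the time term was 0.971 for NQO1, 0.900 for GCLC, 0.845 for GCLM, 0.575 for TXNRD1 and 0.596 for SRXN1. KEAP1 was higher at 96 h by 0.11 with control and by 0.16 with ALKBH3 shRNA (limma adjusted p = 0.341).

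The wider pathway was read from a list of 72 further genes, of which 66 had a probe and 65 were tested through 81 probes. With ALKBH3 shRNA, 0 of these probes were called in limma, and 1 passed an unadjusted p below 0.05, where 7.64% of all probes did. That probe was A_33_P3242623 for SLC7A11, the transporter that exchanges glutamate for the cystine used in glutathione synthesis. SLC7A11 stood at 1.90 on the control array and 1.17 on the ALKBH3 array at 48 h, then at 1.48 and 0.41 at 96 h. Both ALKBH3 arrays lay below both control arrays, and the gap was 0.73 on the log2 scale at 48 h and 1.06 at 96 h. The log2 fold change was -0.89 ± 0.31 (SE, unadjusted p = 0.0359, limma adjusted p = 0.613). In the fit with the replicate block the limma adjusted p of SLC7A11 was 0.0489, and it was the only pathway probe of 81 past that test, which 2.13% of all probes passed. The limma adjusted p in the blocked fit was 0.0831 after quantile normalization. In the other alternative normalizations and background corrections it lay between 8.11e-10 and 0.0467. The lowest, with normexp and quantile normalization, went with a log2 fold change of -0.78 ± 0.115 (SE), against -0.89 ± 0.115 in the main blocked fit. The lower adjusted p thus did not come with a larger change. The share of all probes that passed in those settings is not given here. Without the ALKBH3 array at 96 h the log2 fold change of SLC7A11 was -0.52 (limma unadjusted p = 0.0917).

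Other pathway members that differed most, with the same direction at both times, did not pass the adjusted p in either fit. AKR1B10, an aldo-keto reductase that reduces retinal and other aldehydes, had log2 fold changes of 0.59 on probe A_24_P129341 and 0.52 on A_23_P93641, with limma adjusted p of 0.900 and 0.947. AKR1B15 had 0.43, and its sequence is so like that of AKR1B10 that shared binding cannot be told apart here. Lower with ALKBH3 shRNA were ME1, malic enzyme, which supplies NADPH, at -0.36, and ALDH3A1, an aldehyde dehydrogenase, at -0.28 on probe A_33_P3238433. Over the list, groups did not overlap for 3 probes higher, or 3.7% against 17.5% of all probes, and for 13 lower, or 16.0% against 18.5%. The median log2 fold change of the list was -0.03.

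With time, the wider pathway was lower for more probes than the array as a whole. Of the 81 probes, 52 or 64.2% were lower on both 96 h arrays, against 24.4% of all probes, and 6 were higher. The median change was -0.21 with either shRNA, against -0.01 with control and 0.02 with ALKBH3 shRNA over all probes. The time term of limma passed the adjusted p for 16 probes of 11 genes, all lower at 96 h, or 19.8% against 4.42% of all probes. Without the shRNA term 0 passed. Cell type markers moved over the same interval. Of 7 tested probes for the epithelial genes 3 were lower on both 96 h arrays and 1 was higher, and 2 passed the adjusted p of the time term in limma, CDH1 at -1.33 (adjusted p = 0.0334) and EPCAM at -0.46 (adjusted p = 0.0488). The summed epithelial level, as multiples of the 75th percentile, was 193 and 177 at 48 h and 177 and 172 at 96 h, with control first. KRT19 was the brightest of these probes, at 7.04 on the control array at 48 h. EPCAM was higher with ALKBH3 shRNA by 0.96 at 48 h and 0.99 at 96 h, and CDH1 by 0.89 and 0.58. Their limma adjusted p were 0.451 and 0.894, and 0.0377 and 0.0583 in the blocked fit. KRT19 and both KRT18 probes were lower with ALKBH3 shRNA at both times, and both KRT8 probes were higher over all arrays. Over time, the PECAM1 probes changed by -0.50 and -0.66 (limma adjusted p = 0.0592 and 0.0503). Their summed level was 0.0899 to 0.150 at 48 h and 0.0687 to 0.0929 at 96 h. VIM changed by 0.04, and 1 of 2 PTPRC probes was lower and the other higher on both 96 h arrays. The part of these markers in the fall of the pathway and of HMOX1, AKR1C1 and AKR1C3 was not tested. The changes of the 16 pathway probes ran from -1.39 for AKR1B10 to -0.47 for ABCC3, an export pump for conjugated compounds. Of these, 8 belonged to detoxification and export, among them ALDH3A1, and 4 to other aldo-keto reductases, AKR1B1, AKR1B10 and AKR1B15. CHAC1, which breaks down glutathione, was lower by 0.71 and 0.85, and SESN2, a sestrin induced by stress, by 0.85. None of 11 probes for regulators and partners of NRF2 passed, although 8 of them were lower on both 96 h arrays. Probes of 1 gene are not independent of each other, and the list was chosen with earlier results of these data known.

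**Figure D3:**
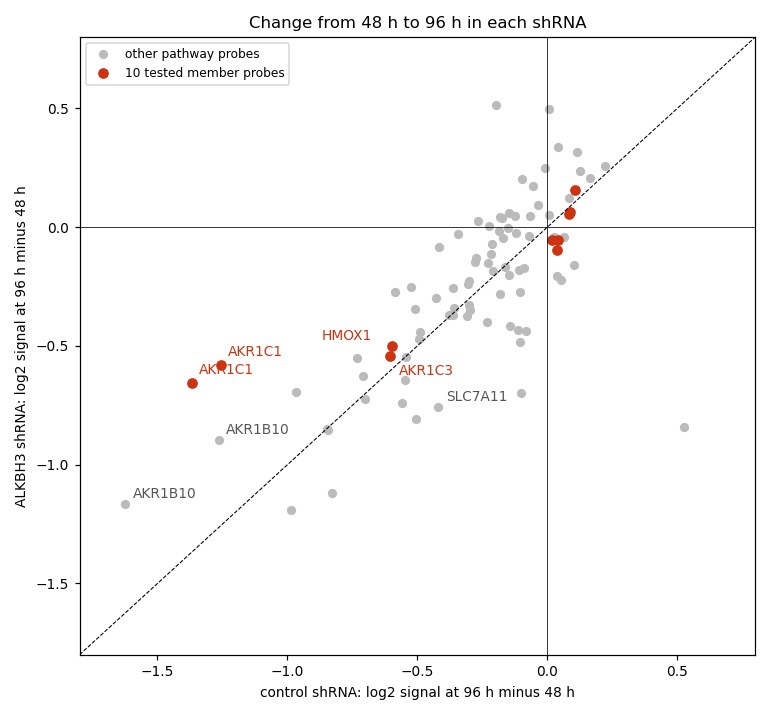
The change in log2 signal from 48 h to 96 h is plotted for each probe, with control shRNA on the horizontal axis and ALKBH3 shRNA on the vertical axis, in red for the 10 tested member probes and in grey for the other pathway probes. The dashed line marks equal change, the AKR1C1 probes lie above it at -1.25 and -1.37 with control shRNA, and HMOX1 and AKR1C3 lie near it.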

How the data were processed

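The deposited spot intensities had been background-subtracted on each array by Agilent Feature Extraction (10.7.3.1, from the headers) and not normalized across arrays. Log2 values that the authors had normalized across arrays served as an alternative. Background flags and other spot flags were taken as deposited. Spots marked as not uniform or outliers (180 to 379 an array) were removed, 0 were saturated, and log2 intensities were centred on the 75th percentile and averaged by probe. A probe was well above background where at least 0.5 of its spots were. ALKBH3 and control shRNA (2 arrays each) were compared by lmFit and eBayes (R 4.3.3, limma 3.58.1, data.table version 1.17.8), with Benjamini-Hochberg adjustment over 23244 probes. RefSeq named 24910 of 34127 probes. A probe of a listed gene with another accession may be missed. The array number limits precision.

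The labels give each shRNA 1 array per selection time, and both arrays of a time share a slide. Time point therefore served as the replicate block in the blocked fit, while the main fit had no block. Deviations of same-time arrays from their group means correlated at 0.66. The named genes are all member probes, ALKBH3, the AKR1C paralogs, and pathway probes past a cutoff or among the 3 largest rises and falls. Members and lists were chosen with earlier results of these data known. Steps were tested on simulated data. Alternatives were the background correction, normalization, filters, 1 probe per gene, the replicate block, a 1.5-fold cutoff, the t-test of the methods and leaving out each array. Some cell type markers are not reported here.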

Additional observations from a re-analysis of the deposited data

Results flagged for a closer look

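The difference between ALKBH3 and control shRNA in AKR1C1 had opposite signs at the selection times on both probes. Opposite signs were found for 2 of the 10 member probes, both of this gene, and for 7392 of all 23244 tested probes. They were thus common on the array. On probe A_23_P257971 ALKBH3 minus control shRNA was -0.21 on the log2 scale at 48 h but 0.46 at 96 h, and on A_24_P152968 it was -0.44 and 0.27. With 1 array for each shRNA and time, this difference was not tested, and each probe has a single spot with a software error of up to 0.163 on the log2 scale.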

How the results depend on the processing

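With 4 arrays, a time and a slide cannot be told apart and small changes cannot be seen. Over all probes the calls numbered 262, against 113 with normexp background correction, 108 with normexp and quantile normalization, 160 with the authors' normalized values, 611 with no filter, 167 with a filter on all 4 arrays, 84 with the methods' t-test, 891 at a 1.5-fold cutoff and between 350 and 477 when an array was left out. The 0 calls among the members held in all of these. Of the pathway probes, 1 (SLC7A11, lower) was called at 1.5-fold, and between 0 and 2 when an array was left out. These were SLC7A11 without the ALKBH3 array at 48 h or the control array at 96 h, and both AKR1B10 probes, higher, without the control array at 48 h. With the replicate block 2 of the 10 member probes had an unadjusted limma p below 0.05, HMOX1 (higher) and GCLM (lower). In that fit 2848 of the 23244 tested probes were higher and 2402 lower at this cutoff, so that 2 of 10 was near the background. The methods' t-test gave 2 member probes, GCLC (higher) and GCLM (lower), and its share over all probes is not given here.

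For the change with time, 4 member probes passed under normexp with or without quantile normalization, median centring, the authors' values and the filter on all 4 arrays. They were the probes of HMOX1 and AKR1C3 and both AKR1C1 probes. Quantile normalization alone and no filter each left 0 of the 3 member probes of the main setting, as did the fit without the shRNA term. The 16 pathway probes became 33 under normexp, 33 with normexp and quantile, 8 under quantile, 30 with the authors' values, 0 with no filter and 0 without the shRNA term. Over all tested probes the count past the adjusted p also moved, by more than 1.5-fold or to 0, in 6 of the other normalizations, corrections and filters. It did not in 2. The share of 4.42% over all probes holds only for the main setting. Shares for the other settings are not given here, so that their member and pathway counts cannot be set against a background. The fall of HMOX1, AKR1C1 and AKR1C3 kept its direction in all these settings and with each array left out.

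The AKR1C1 fold change of probe A_24_P152968 turned to 0.0169 with normexp, 0.00264 with normexp and quantile and 0.0154 with the authors' values, and that of SRXN1 to -0.00283 with median centring. The sign of AKR1C3 at 96 h turned with normexp (0.0189), normexp and quantile (0.0119) and the authors' values (0.00677). With an array left out, the log2 fold change ran from -0.0253 to 0.131 for KEAP1, -0.0512 to 0.546 for HMOX1, -0.43 to 0.18 for AKR1C3, -0.50 to 0.75 and -0.76 to 0.60 for the AKR1C1 probes and -0.0219 to 0.0611 for SRXN1, and from -1.27 to -0.52 for SLC7A11. The cause was not tested.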
